A study of Mus musculus with 29 samples.

Results

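The genes described here are those of the proteasome, chosen as every protein-coding gene of the hippocampal RNA-seq table whose symbol begins with Psma, Psmb, Psmc, Psmd or Psme followed by a number. The rule found 45 genes among the 31002 of the table, and 43 of them passed the filter on low values, which asked for a TPM (transcript level corrected for transcript length and library size) that reached 1 in no fewer than 2 mice. RNA was taken from the hippocampus of 29 mice, one library for each mouse, in 4 groups: 7 WT mice at 2 months, 8 WT mice at 22 months, 8 hAβ-KI mice at 2 months and 6 hAβ-KI mice at 22 months. The hAβ-KI mice were homozygous for a humanized Aβ sequence placed in the mouse App gene, whose Aβ exon is flanked by loxP sites, and they carried no familial Alzheimer mutation. The WT mice were labelled C57BL/6N and the hAβ-KI mice C57BL/6NJ, so the knock-in allele and the substrain cannot be told apart. All hAβ-KI mice were of 1 knock-in line. Males (18) and females (11) were present in every group.

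The proteasome degrades proteins that have been tagged with ubiquitin. Its 20S core is a barrel of alpha rings outside and beta rings inside, and 3 of the beta subunits (Psmb5, Psmb6 and Psmb7) carry the catalytic sites. The 19S particle caps the barrel, binds the ubiquitin chain and unfolds the substrate with a ring of ATPases. Under interferon, cells replace the catalytic subunits with Psmb8, Psmb9 and Psmb10 and so build the immunoproteasome, whose peptides are loaded on MHC class I molecules. In the brain it is known mainly from microglia and other immune cells, whereas neurons rely on the constitutive core.

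Summed TPM over the genes of the table ranged from 717535 to 816940 in the 29 libraries, and 13528 to 14189 genes reached 1 TPM. Defining markers of neurons (8 of 8 tested), astrocytes (6 of 6), microglia (9 of 9), oligodendrocytes (6 of 6) and endothelium (6 of 6) were all detected. The 6 choroid plexus markers summed to between 38.3 and 17995 TPM and ranged almost as widely within every group. The 7 blood and T cell markers summed to between 160.1 and 1717 TPM. No 2 libraries held identical values. Library names end in the letter S and a number, and these numbers form a separate block for each group. The labels do not say what the numbers stand for. Any order of handling that they follow cannot be told apart from group.

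Per transcript, the constitutive core was the most abundant part of the complex. Of the genes for the catalytic beta subunits Psmb5 was the most abundant at a mean of 398.2 TPM over the 29 mice and Psmb7 the least at 193.0 TPM. The 4 structural beta subunits lay between 219.97 (Psmb2) and 381.2 TPM (Psmb4), and the 7 alpha subunits between 118.9 (Psma4) and 280.4 TPM (Psma7). The 6 ATPases of the 19S particle ranged from 71.6 (Psmc6) to 228.3 TPM (Psmc5), and its 11 other subunits from 69.6 (Psmd12) to 156.6 TPM (Psmd4). The 3 chaperones that assemble the 19S base were less abundant, from 22.4 TPM for Psmd10 to 44.6 TPM for Psmd5. Psmc3ip, which matches the rule by its symbol alone and encodes a recombination factor, stood at 6.28 TPM.

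The alternative subunits were lower. Psmb10 reached a mean of 60.3 TPM, Psmb8 12.7 TPM and Psmb9 4.36 TPM. The activators of the core that work without ubiquitin were Psme1 (83.1 TPM), Psme2 (53.9 TPM) and Psme3 (36.0 TPM), which make up the PA28 caps, and Psme4 (2.28 TPM), which encodes PA200. Psma8, the alpha subunit of the testis, did not exceed 0.55 TPM in any mouse and Psmb11, the catalytic subunit of the thymus cortex, did not exceed 0.16 TPM; both failed the filter and were not tested. Together the 45 genes made up 0.744 to 0.837% of the summed TPM of a library.

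Some of these levels rest on reads that other genes could share. Of the stretches of 43 bases (the read length) in the annotated transcripts of a member, over 10% also occur in another gene, on either strand, for 13 of the 45 members. The share was 72.2% for Psme2b, most of it with Psme2, 61.2% for Psmb5 and 53.9% for Psma5, and their levels are uncertain to that extent. It was 12.4% for Psmb8, shared with the antisense gene Gm20496, which was listed at 0 TPM in every mouse; the libraries keep no strand, so reads from the overlap cannot be told apart.

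The first question was how the proteasome changed with age in each genotype. Psmb8 and Psmb9 rose from 2 to 22 months in both genotypes, whereas the third immunoproteasome gene, Psmb10, did not pass the test in either. In WT mice Psmb8, which replaces Psmb5, ranged from 7.05 to 14.1 TPM at 2 months (median 9.04) and from 14.8 to 19.8 TPM at 22 months (median 16.98). Every old WT mouse lay above every young one, and the share of all tested genes with such a separation was not counted. In hAβ-KI mice Psmb8 ranged from 7.48 to 11.1 TPM at 2 months (median 8.76) and from 11.1 to 22.1 TPM at 22 months (median 14.7). Here 5 of the 6 old mice lay above all 8 young ones and the lowest old mouse fell just under the highest young one. The mean TPM was 1.79 times as high in old as in young WT mice and 1.75 times as high in old as in young hAβ-KI mice. On the log2(TPM + 1) scale the age difference was 0.79 ± 0.12 (SE, n = 7 and 8) in WT (limma, Benjamini-Hochberg adjusted p = 0.000278) and 0.72 ± 0.13 (SE, n = 8 and 6) in hAβ-KI mice (limma, Benjamini-Hochberg adjusted p = 0.00111). A bulk level cannot tell more cells of a type from more RNA per cell, here and below.

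Psmb9, which replaces Psmb6, moved the same way at a lower level. It ranged from 2.55 to 4.25 TPM in young WT mice (median 3.54) and from 4.25 to 6.67 TPM in old WT mice (median 5.22). The lowest old mouse equalled the highest young one, and the other 7 old mice lay above all young ones. In hAβ-KI mice it ranged from 2.54 to 4.79 TPM at 2 months (median 3.12) and from 3.69 to 6.77 TPM at 22 months (median 5.66), and 4 of the 6 old mice lay above all young ones. The age difference was 0.51 ± 0.12 (SE) in WT (limma, Benjamini-Hochberg adjusted p = 0.0211) and 0.56 ± 0.13 in hAβ-KI mice (limma, Benjamini-Hochberg adjusted p = 0.00825). Psmb8 and Psmb9 remained called in both genotypes under all 10 other settings and whichever mouse was left out.

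Psmb10, which replaces Psmb7, overlapped between all groups. It ranged from 56.3 to 68.4 TPM in young WT, 57.8 to 73.8 TPM in old WT, 47.5 to 64.6 TPM in young hAβ-KI and 51.1 to 71.0 TPM in old hAβ-KI mice. Between ages it differed by 0.09 with a 95% interval from -0.04 to 0.23 in WT (limma, Benjamini-Hochberg adjusted p = 0.507) and 0.06 with an interval from -0.08 to 0.19 in hAβ-KI mice (limma, Benjamini-Hochberg adjusted p = 0.712). Both intervals end below the estimates for Psmb8 and Psmb9.

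**Figure D1:**
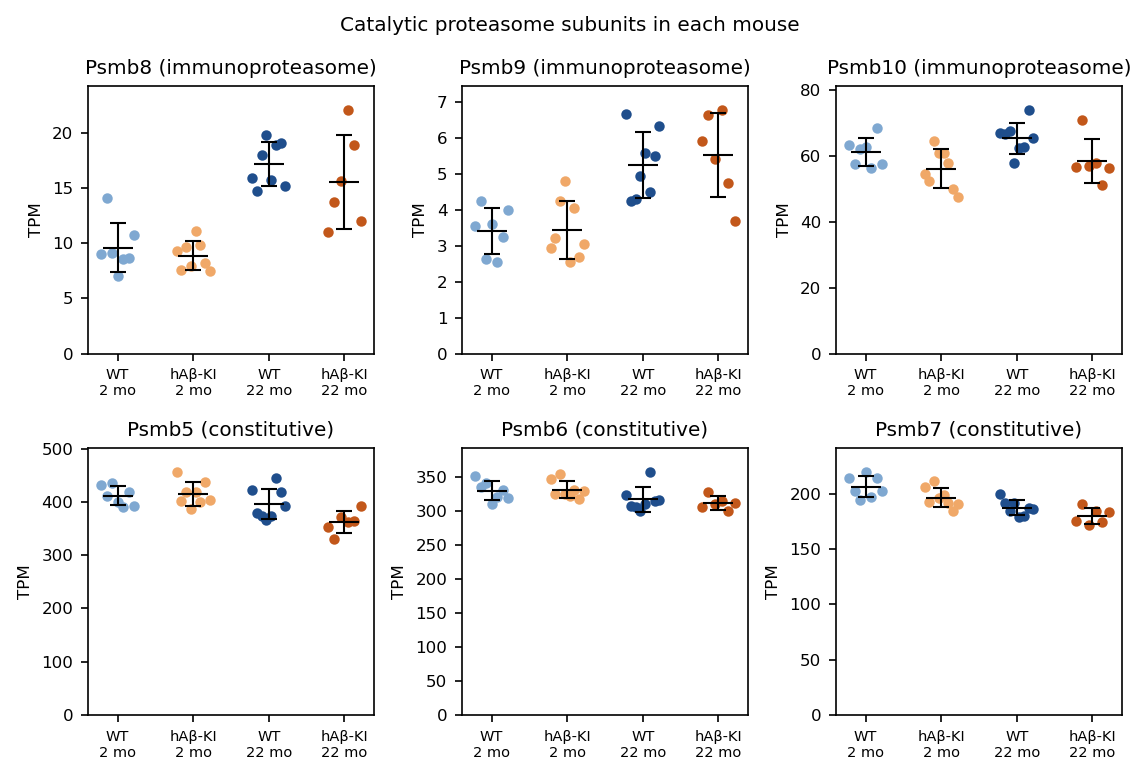
TPM of the 3 immunoproteasome genes (top row) and of the constitutive genes they replace (bottom row) in each mouse, by group; points are mice and the black bars give the mean ± SD, on axes that start at 0. Psmb8 and Psmb9 are higher at 22 months in both genotypes, while Psmb10 lies between 47.5 and 73.8 TPM throughout.

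The RefSeq promoter windows (250 bases before the annotated start and 50 after it, GRCm38.p6, written 5′ to 3′ on the strand of the gene) are shown for the 3 immunoproteasome genes and Psmb5. They were chosen since Psmb8 and Psmb9 were called higher with age in both genotypes and Psmb10 and Psmb5 were not. Whether these sequences had a part in that was not tested. Capitals mark a match to TTCNNNGAA, the palindromic core of the gamma-activated site, to a pair of GAAA with any 2 bases between them on either strand, an interferon response core, or to TGACNNNGC on either strand, the core of the antioxidant response element that Nfe2l1 and Nfe2l2 bind. A window was found for 38 of the 45 members. Psmb8 lies at chr17:34197945-34198244 (+), Psmb9 at chr17:34187281-34187580 (-), Psmb10 at chr8:105938343-105938642 (-) and Psmb5 at chr14:54617946-54618245 (-).
Psmb8: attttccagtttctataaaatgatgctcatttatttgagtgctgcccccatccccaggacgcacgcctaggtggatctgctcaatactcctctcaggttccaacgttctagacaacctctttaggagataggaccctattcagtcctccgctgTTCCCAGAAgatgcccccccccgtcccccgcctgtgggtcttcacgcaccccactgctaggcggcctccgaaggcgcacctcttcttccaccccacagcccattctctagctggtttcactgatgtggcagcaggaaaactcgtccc
Psmb9: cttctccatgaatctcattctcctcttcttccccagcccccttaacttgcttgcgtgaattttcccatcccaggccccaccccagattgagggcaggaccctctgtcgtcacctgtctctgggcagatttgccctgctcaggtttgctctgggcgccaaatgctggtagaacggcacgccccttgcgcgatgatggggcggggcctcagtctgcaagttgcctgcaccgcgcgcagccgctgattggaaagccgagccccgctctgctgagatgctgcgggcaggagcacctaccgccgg
Psmb10: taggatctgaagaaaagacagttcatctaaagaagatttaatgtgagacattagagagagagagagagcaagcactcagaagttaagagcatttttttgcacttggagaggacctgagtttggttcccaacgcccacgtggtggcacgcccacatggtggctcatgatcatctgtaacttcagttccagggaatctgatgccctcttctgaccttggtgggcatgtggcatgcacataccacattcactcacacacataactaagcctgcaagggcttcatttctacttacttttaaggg
Psmb5: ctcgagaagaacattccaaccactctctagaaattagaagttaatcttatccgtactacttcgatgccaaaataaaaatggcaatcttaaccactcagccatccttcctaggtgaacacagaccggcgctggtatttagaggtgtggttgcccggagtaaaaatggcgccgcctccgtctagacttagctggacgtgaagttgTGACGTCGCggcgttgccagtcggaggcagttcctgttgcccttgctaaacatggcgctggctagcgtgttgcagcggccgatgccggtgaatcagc

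The Psmb8 window holds TTCNNNGAA beginning 97 bases before the RefSeq start, a pattern that 8.30% of all 32851 promoter windows hold, and among the 38 members with a window only Psmd2 shares it. The Psmb5 window holds TGACNNNGC beginning 47 bases before the start, as 12.4% of all windows do, and 6 members hold it (Psmb5, Psmb6, Psmc6, Psmd9, Psmd12 and Psme4). The interferon response core occurs in 3.44% of all windows and in those of Psmb3, Psmd4, Psmd9 and Psme1, but in no window of an immunoproteasome gene. The Psmb8 and Psmb9 windows lie wholly inside the GENCODE spans of these genes given below. Bases upstream of those spans were therefore not searched for either gene, and the Psmb8 match lies within its span. These are matches of letters within a window and no measure of binding.

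Psmb8 and Psmb9 sit beside the peptide transporter genes Tap1 and Tap2 in the MHC region of chromosome 17 (GRCm38, GENCODE M21). Psmb9 spans 34181987 to 34187764 on the minus strand, Tap1 34187553 to 34197225 on the plus strand, Psmb8 34197721 to 34201454 on the plus strand and Tap2 34203527 to 34216321 on the plus strand, so that the 4 genes fit in 34335 bases. Psmb9 and Tap1 run in opposite directions with spans that overlap at their starts, and their promoter windows share 275 bases. Psmb10 lies elsewhere, at 105935735 to 105938444 on chromosome 8, minus strand.

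The neighbors and partners of these genes were read from a list of 11 genes of MHC class I peptide presentation, of which 10 were tested. With age 5 of them rose in WT (Tap1, Tap2, B2m, H2-K1 and H2-D1) and 4 in hAβ-KI mice (the same without Tap1), and none fell. Tap2 rose by 0.36 ± 0.10 (SE) in WT and by 0.48 ± 0.11 with the knock-in. Tap1 differed by 0.42 ± 0.12 in WT and 0.32 ± 0.13 with the knock-in, where the adjusted p was 0.145 (limma, Benjamini-Hochberg). B2m, the light chain of MHC class I, rose by 0.34 ± 0.10 in WT and by 0.64 ± 0.10 with the knock-in. It ranged more widely in old hAβ-KI mice (334.57 to 699.64 TPM) than in old WT mice (366.59 to 470.9 TPM). The lowest old hAβ-KI mouse lay under the highest young one (338.6 TPM), and B2m was not called for genotype by age. Among 20 tested genes of interferon signalling 3 rose and none fell in WT (Ifit3, Xaf1 and Irf8), and 5 rose and 1 fell (Ifngr2) in hAβ-KI mice, where Gbp2 and Ifit1 joined them. For comparison with these lists and the cell markers below, 1.93% of all genes were called higher with age in WT and 3.86% in hAβ-KI mice. Called lower were 3.07% and 5.32%.

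Most markers of microglia rose with age, as Psmb8 and Psmb9 did. Of 9 markers, 8 rose with age in WT and the same 8 in hAβ-KI mice (Aif1, C1qa, C1qb, Csf1r, Ctss, Cx3cr1, Tmem119 and Trem2), and P2ry12 did not pass the test. Their summed level was 363 to 438 TPM in young WT, 499.7 to 697 TPM in old WT, 364 to 409.8 TPM in young hAβ-KI and 519.9 to 762 TPM in old hAβ-KI mice, and no marker was at 0. The mean of the log2 sum was 0.52 higher in old than in young WT mice and 0.65 higher in old than in young hAβ-KI mice, against 0.79 and 0.72 for Psmb8. The part that microglia had in the rise of Psmb8 and Psmb9 was not tested. Of the astrocyte markers Gfap and S100b rose in both genotypes (2 of 6), of the endothelial markers Flt1 rose in WT and Vwf in hAβ-KI mice (1 of 6 each), and of the 4 tested blood and T cell markers Nkg7 rose in hAβ-KI mice. Of the 6 oligodendrocyte markers Mog fell in WT, and no choroid plexus marker was called.

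Within groups, Psmb8 and Psmb9 had different partners. Over the 29 mice, with the group means taken out, the 5 genes of 15553 most like Psmb8 were B2m (Pearson r = 0.71, Spearman rho = 0.76), Slfn2, Oas1a, H2-D1 and Rtp4, which are mostly genes of antigen presentation and the interferon response. Without the 2 mice farthest from the median of Psmb8 the r for B2m was 0.65. Psmb8 correlated with the summed microglial markers with r = 0.48 (rho = 0.43; r = 0.36 without the 2 mice farthest in the marker sum). For Psmb9 the same value was -0.14 (rho = -0.15; r = -0.23 without them), and the 5 genes most like it were Hdac8 (r = 0.66, rho = 0.66), Ppargc1a, Cstf1, Aaed1 and Neo1. Those most like Psmb10 were Arhgdig (r = 0.83, rho = 0.75), Gng3, Gng13, Timp2 and Ttc9b. These genes were taken as the highest of all genes, in libraries that share preparation and scaling, so the correlations describe these mice and carry no test.

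In the old hAβ-KI group a single mouse, replicate 4, had the highest Psmb8 (22.1 TPM), the highest Psmb9 (6.77 TPM), the highest summed MHC class I genes (1319 TPM), interferon genes (525 TPM) and microglial markers (762 TPM) and also the highest summed blood and T cell markers (1717 TPM). Without it the age difference of Psmb8 in hAβ-KI mice was 0.61 and remained called.

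Set against the transcript of the subunit it replaces, Psmb8 was a small share that was higher in old mice. In young WT mice Psmb8 stood at 1.76 to 3.43% of the TPM of Psmb5 (median 2.10%) and in old WT mice at 3.77 to 5.43% (median 4.24%). In hAβ-KI mice the range was 1.85 to 2.65% at 2 months (median 2.05%) and 3.06 to 6.11% at 22 months (median 4.20%). In neither genotype did young and old mice overlap, and how often other ratios separate so was not counted. Of the stretches of Psmb5, 61.2% also occur in another gene, so the level of Psmb5 under this share is uncertain to that extent. Psmb9 stood at 0.777 to 1.27% of Psmb6 in young WT and 1.26 to 2.06% in old WT mice, and at 0.788 to 1.48% in young and 1.19 to 2.15% in old hAβ-KI mice, with some overlap in both genotypes. Psmb10 was in another range, at 28.4 to 32.0% of Psmb7 in young WT, 30.2 to 39.5% in old WT, 24.9 to 31.1% in young hAβ-KI and 29.3 to 37.3% in old hAβ-KI mice. Its means were 29.6, 34.9, 28.5 and 32.4%, in that order. These shares compare transcripts, not assembled complexes, and are given as a description.

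**Figure D2:**
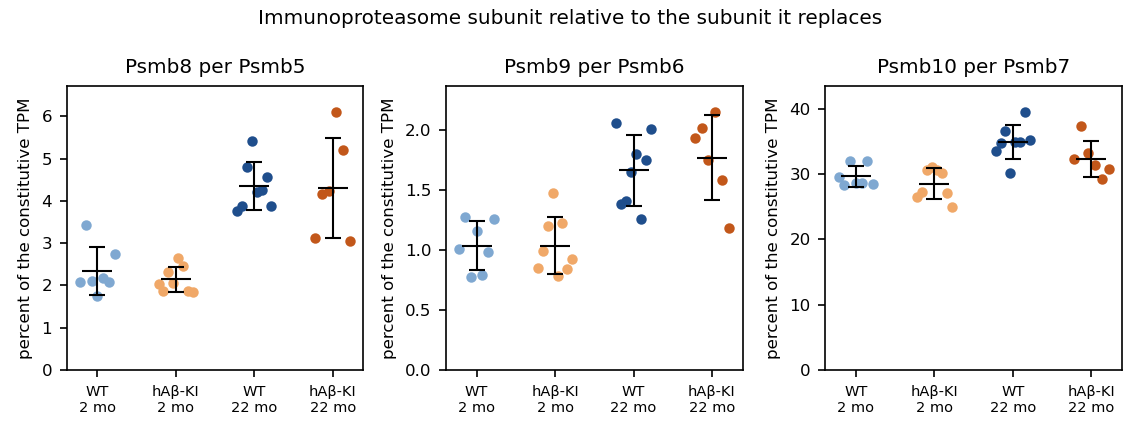
TPM of each immunoproteasome gene as a percentage of the TPM of the constitutive gene it replaces, in each mouse; points are mice and the black bars give the mean ± SD, on axes that start at 0. Psmb8 per Psmb5 goes from medians of 2.10% (WT) and 2.05% (hAβ-KI) at 2 months to 4.24% and 4.20% at 22 months.

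The constitutive subunits went the other way. Of all 43 tested members, 9 were called in WT (2 higher and 7 lower) and 15 in hAβ-KI mice (2 higher and 13 lower), at an FDR under 0.1 with p under 0.05. For comparison, of all 15554 genes tested 5% were called in WT (1.93% higher and 3.07% lower) and 9.18% in hAβ-KI mice (3.86% higher and 5.32% lower). The differences were small, and their direction was shared: 36 of the 43 members were lower in old WT and 34 lower in old hAβ-KI mice, with median log2 fold changes of -0.093 and -0.10, against -0.029 and -0.0047 over all genes. Of all genes tested, 40.7% were higher and the rest mostly lower in old WT mice, and 48.8% were higher in old hAβ-KI mice. After quantile normalization 34 and 33 members were lower, with medians of -0.040 and -0.062, while 48.0% and 45.0% of all genes were higher. The split over all genes in WT also turned with the scaling, from 300 higher and 477 lower to 377 and 224 after quantile normalization and to 408 and 304 where TPM were rescaled over nuclear protein-coding genes. As a share of the summed TPM, the 45 members were at 0.809 ± 0.014% (SD, n = 7) in young WT, 0.776 ± 0.019% (n = 8) in old WT, 0.815 ± 0.011% (n = 8) in young hAβ-KI and 0.760 ± 0.019% (n = 6) in old hAβ-KI mice. Since members vary together within groups, their number is not a number of independent observations.

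All 14 constitutive subunits of the 20S core were lower in old mice of both genotypes, and were so under each scaling tried. In WT mice 4 of them fell (Psmb7, Psma1, Psma4 and Psma5), and in hAβ-KI mice 10 fell (Psmb5, Psmb7, Psmb1, Psmb2, Psmb3, Psma2, Psma4, Psma5, Psma6 and Psma7). The 14 had a median log2 fold change of -0.10 in WT and of -0.12 with the knock-in, or -6.38% and -8.29% of TPM + 1, and after quantile normalization of -0.046 and -0.086. Psmb7, with the trypsin-like site, fell by 0.14 ± 0.03 (SE) in WT and by 0.13 ± 0.04 in hAβ-KI mice. It ranged from 194.4 to 219.9 TPM in young WT (median 202.8) and from 178.8 to 199.6 TPM in old WT mice (median 186.6), and 7 of the 8 old mice lay below all young ones. After quantile normalization none of the 4 core calls in WT held, with limma and Benjamini-Hochberg adjusted p of 0.151 for Psmb7 (-0.083), 0.335 for Psma1, 0.151 for Psma4 and 0.229 for Psma5. Of the 10 core calls in hAβ-KI mice 4 were lost under it, with limma and Benjamini-Hochberg adjusted p of 0.108 for Psma2, 0.183 for Psma7, 0.157 for Psmb1 and 0.203 for Psmb2. Psma1 in WT was lost in 3 of the 10 other settings, and in hAβ-KI mice Psma7 in 2 and Psmb1 and Psmb2 in 4 each.

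Psmb5, with the chymotrypsin-like site, was called in hAβ-KI mice. It ranged from 386.9 to 456.5 TPM at 2 months (median 411.2) and from 329.6 to 392.3 TPM at 22 months (median 362.9), and 5 of the 6 old mice lay below all young ones. The difference was -0.20 ± 0.04 (SE) in hAβ-KI mice (limma, Benjamini-Hochberg adjusted p = 0.00791) and -0.06 ± 0.04 in WT (limma, Benjamini-Hochberg adjusted p = 0.567). The difference between these was -0.14 ± 0.06 and did not pass (limma, Benjamini-Hochberg adjusted p = 0.712). Psmb6, with the caspase-like site, was not called in either genotype, at -0.06 in WT and -0.09 in hAβ-KI mice.

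Of the alpha ring, Psma4 and Psma5 were called in both genotypes, but the WT calls were lost in 6 (Psma4) and 3 (Psma5) of the 10 other settings, with adjusted p up to 0.152 and 0.229 (limma, Benjamini-Hochberg). The calls of both in hAβ-KI mice held in all 10. Psma5 ranged from 145.3 to 172.8 TPM in young WT, 135.2 to 153.6 TPM in old WT, 154.3 to 176.1 TPM in young hAβ-KI and 135.6 to 146.8 TPM in old hAβ-KI mice. In hAβ-KI mice all 6 old mice lay below all 8 young ones, as they did for Psma4 and Psmb3. The share of all tested genes with such a separation was not counted. Psma5 fell by 0.14 ± 0.04 (SE) in WT and by 0.20 ± 0.04 in hAβ-KI mice, and Psma4 by 0.13 ± 0.04 and 0.19 ± 0.04.

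The 19S particle was lower by about as much, with fewer calls. Its 17 subunits had a median log2 fold change of -0.10 in both genotypes, and 17 of 17 were lower in old WT and 16 of 17 in old hAβ-KI mice, the exception being the ATPase Psmc5 at 0.01. After quantile normalization 15 of 17 were lower in each genotype, with medians of -0.059 in WT and -0.058 with the knock-in, where Psmc5 was higher in both, Psmd4 in WT and Psmc1 with the knock-in. Called in WT were the ATPase Psmc6 (-0.20 ± 0.05, SE) and the lid subunit Psmd11 (-0.19 ± 0.05). Psmc6 ranged from 70.7 to 86.1 TPM in young WT and from 61.3 to 73.9 TPM in old WT mice, where 7 of the 8 old mice lay below all young ones. In hAβ-KI mice the difference of Psmc6 was -0.04 ± 0.05. Called in hAβ-KI mice were 3 others, the scaffold subunits Psmd1 (-0.16 ± 0.05) and Psmd2 (-0.22 ± 0.05) and the lid subunit Psmd13 (-0.21 ± 0.05). Psmd2 ranged from 126.1 to 148.1 TPM in young and from 108.8 to 131.6 TPM in old hAβ-KI mice, with 5 of the 6 old mice below all young ones. Of the 19S assembly chaperones Psmd5 fell in WT (-0.21 ± 0.07; limma, Benjamini-Hochberg adjusted p = 0.0871), a call lost in 7 of the 10 other settings, with adjusted p up to 0.271 (limma, Benjamini-Hochberg), while Psmd9 and Psmd10 were not called.

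Of the members lower with age, 3 were called in both genotypes, 4 in WT and not in hAβ-KI mice, and 10 in hAβ-KI and not in WT mice. That does not show a difference between the genotypes, since no member passed the test of genotype by age, where 0.00643% of all genes were called. At an unadjusted p under 0.05 by limma were 2 members, Psmb5 and Psmc6, and 1067 of all 15554 genes. The number of members lower in WT was sensitive to single mice and to scaling. It fell from 7 to 3 without WT 2-month replicate 1 and likewise without WT 2-month replicate 6, and to 2 after quantile normalization (Psmc6 and Psmd11), where the split was 2 higher and 2 lower. Among 29 fits that each left out 1 mouse, the WT calls of Psma1, Psma4, Psma5 and Psmd5 were lost in 6, 10, 2 and 10. In hAβ-KI mice those of Psma7, Psmb1 and Psmb2 were lost in 7, 8 and 9, and that of Psma6 without the old replicate 4 (limma, Benjamini-Hochberg adjusted p = 0.130). The highest adjusted p among these fits was 0.177, by limma with Benjamini-Hochberg adjustment.

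**Figure D3:**
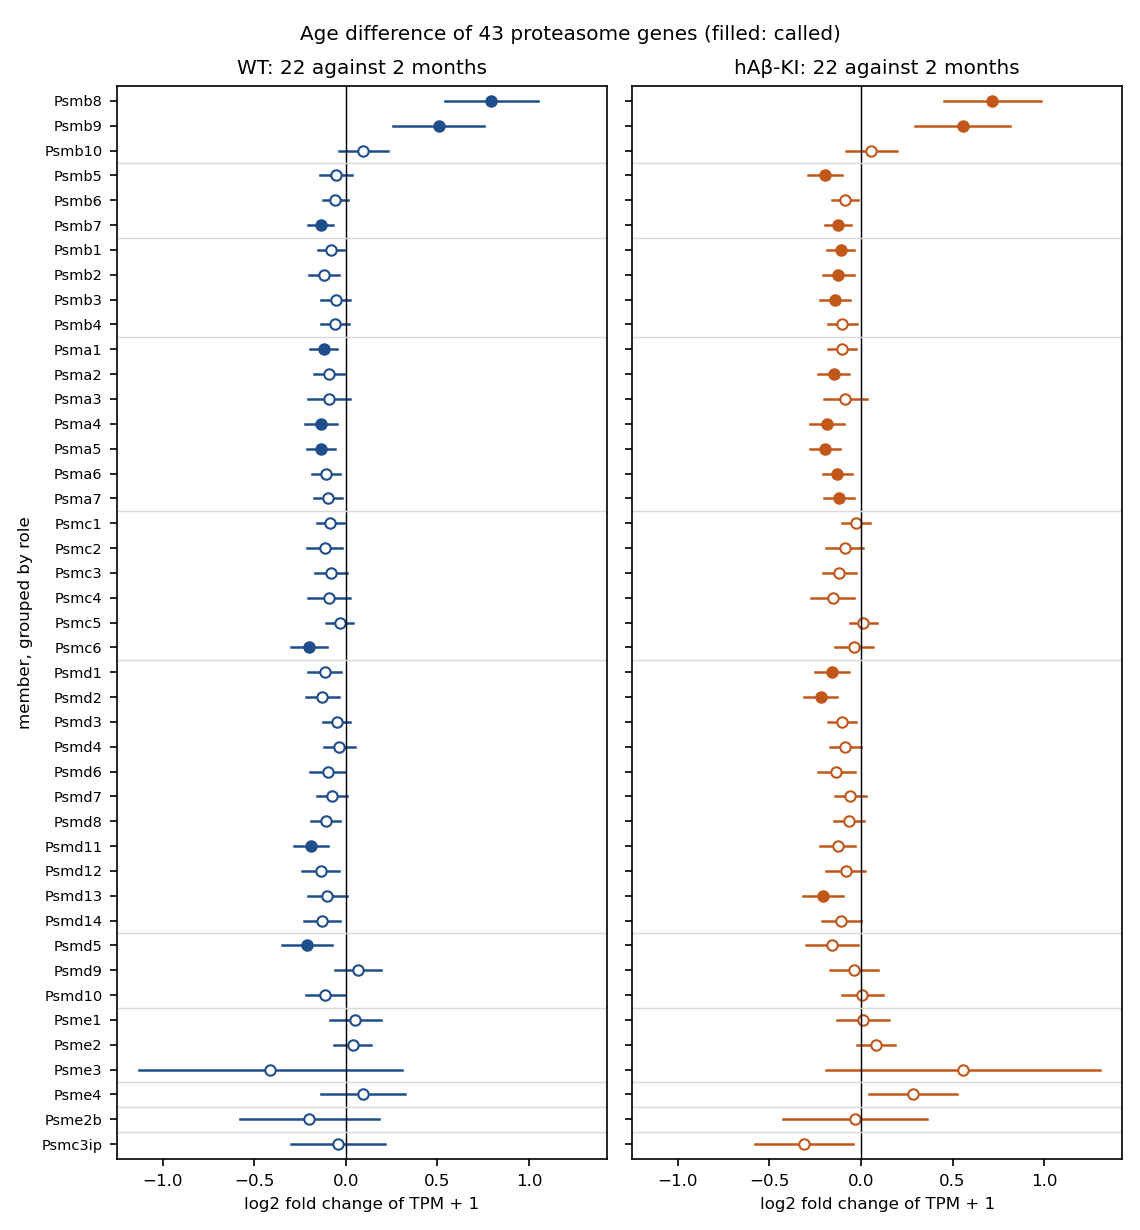
Log2 fold change of TPM + 1 at 22 against 2 months for the 43 tested members, in WT (left) and hAβ-KI mice (right), ordered by role; lines are 95% confidence intervals and filled points are called. Psmb8 and Psmb9 lie to the right of 0 in both panels and most subunits of the core and the 19S particle lie between -0.22 and 0, with Psme3 the widest interval.

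The next question was whether the knock-in allele altered the proteasome. No member was called at 2 months (4 of 43 at an unadjusted p under 0.05) or at 22 months (5 of 43), by limma with Benjamini-Hochberg adjustment, while 0.0386% and 0.495% of all genes were called. Of all 15554 genes, 1041 were at an unadjusted p under 0.05 by limma at 2 months and 1584 at 22 months. At 2 months the median log2 fold change of the 43 members was -0.01 and at 22 months -0.04. The sign of the former turned under quantile normalization and under rescaling to nuclear protein-coding genes (0.01 and 0.02). For the 31 subunits of the core and the 19S particle the differences lay between -0.12 (Psmc6) and 0.02 at 2 months and between -0.13 (Psmb5) and 0.06 (Psmc1) at 22 months. The lowest bound of their 95% intervals was -0.22 at either age and the highest bound was 0.13 at 2 months and 0.15 at 22 months.

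The largest differences in these comparisons were those of the scarcer genes. At 2 months they were Psmd9 at 0.15 ± 0.06 (SE), Psmc3ip at 0.13 ± 0.13, Psme2b at -0.17 ± 0.19 and Psme3 at -0.29 ± 0.35. At 22 months they were Psme3 at 0.68 ± 0.37, Psme4 at 0.32 ± 0.12, Psmb8 at -0.16 ± 0.13 and Psmb10 at -0.17 ± 0.07. Psme4 ranged from 1.45 to 2.67 TPM in old WT and from 2.01 to 3.47 TPM in old hAβ-KI mice, and 4 of the 6 hAβ-KI mice lay above all WT mice (limma, Benjamini-Hochberg adjusted p = 0.309). Psmb10 was lower on average in hAβ-KI mice at each age, with a mean of 56.1 against 61.2 TPM at 2 months and 58.3 against 65.4 TPM at 22 months, and 4 hAβ-KI mice lay below all WT mice at either age (adjusted p = 0.777 and 0.370 by limma with Benjamini-Hochberg adjustment). The genotype differences of Psmb8 and Psmb9 had 95% intervals from -0.34 to 0.17 and from -0.25 to 0.25 at 2 months and from -0.43 to 0.10 and from -0.21 to 0.31 at 22 months.

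**Figure D4:**
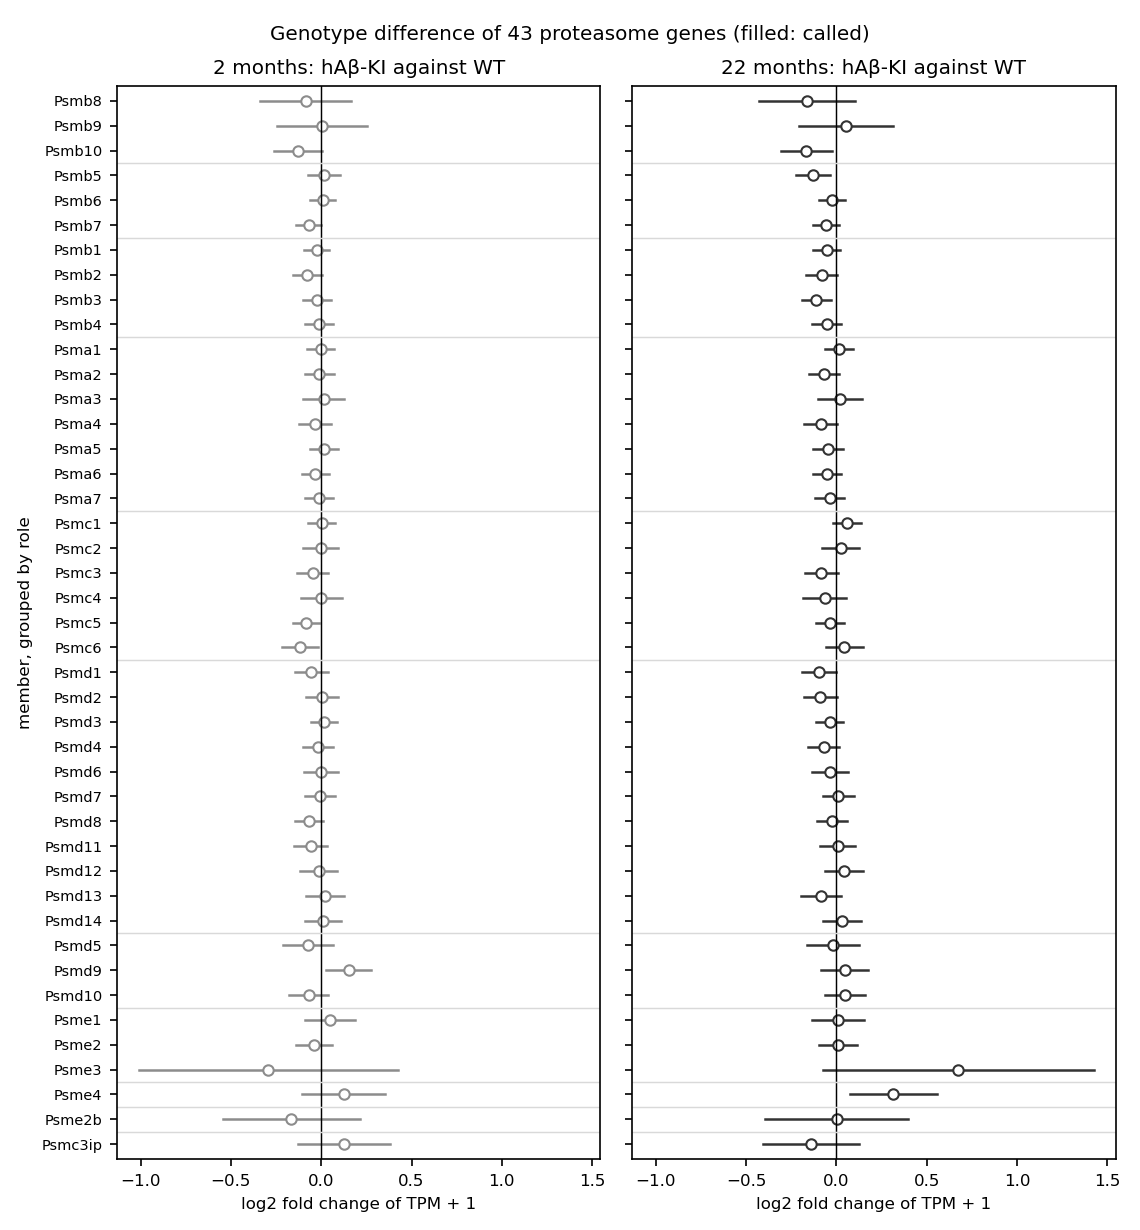
Log2 fold change of TPM + 1 in hAβ-KI against WT mice for the 43 tested members at 2 months (left) and 22 months (right), ordered by role; lines are 95% confidence intervals and a called gene would be filled. No point is filled, and the intervals of the core and 19S subunits stay between -0.22 and 0.15.

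Of the PA28 activators none was called with age. Psme1 and Psme2, whose products form the PA28 ring that interferon induces together with the immunoproteasome, lie next to each other on chromosome 14 (55578123 to 55581529 on the plus strand and 55587441 to 55591113 on the minus strand, GRCm38). Psme1 differed with age by 0.05 ± 0.07 (SE) in WT and 0.01 ± 0.07 with the knock-in, and Psme2 by 0.04 ± 0.05 and 0.08 ± 0.05, none of them called. Psme2 was called as higher in old hAβ-KI mice after quantile normalization, at 0.12. Over all mice Psme1 ranged from 70.4 to 98.6 TPM and Psme2 from 46.99 to 60.8 TPM, with overlap between all groups.

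Psme3, which forms the nuclear PA28 gamma ring, varied between mice more than any other tested member, and did so within every group. It ranged from 14.7 to 61.1 TPM in young WT (median 44.4), 12.4 to 47.7 TPM in old WT (median 28.1), 11.4 to 57.3 TPM in young hAβ-KI (median 34.2) and 20.1 to 58.2 TPM in old hAβ-KI mice (median 51.9). The highest mouse had 5.37 times the TPM of the lowest. The SD within groups was 0.73 on the log2 scale, against a median of 0.08 and a highest value of 0.38 among the other tested members, and only 10 of the 2009 genes of like abundance (within 0.5 log2 units) had a larger one. None of its group differences was called, with standard errors of 0.35 to 0.37.

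The spread of Psme3 was shared by other genes. With group means taken out, 47 genes that are no members had a Pearson r of at least 0.95 to Psme3 over the 29 mice and 160 of at least 0.9, led by Rell2 (r = 0.99, rho = 0.96), Ypel3, Ybx1, Tmem55b and Fbxo31. The r of Rell2 was 0.99 also without the 2 mice farthest from the median of Psme3. This set was singled out after its values were seen and carries no test. With the mean of the 47 genes as a covariate, 12 members rather than 7 were called lower in old WT mice and 12 rather than 13 in old hAβ-KI mice, where Psme4 joined Psmb8 and Psmb9 as higher (0.35).

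**Figure D5:**
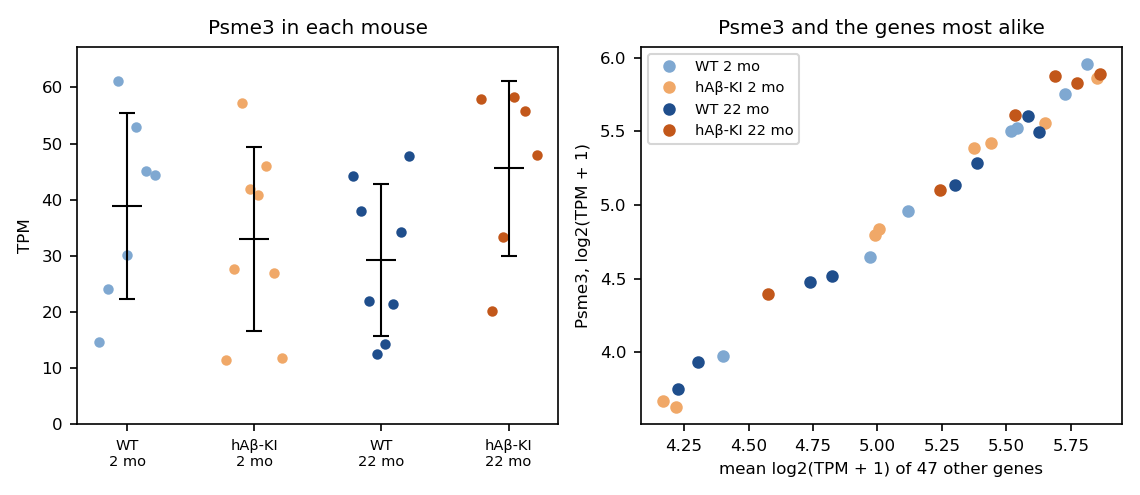
Left, TPM of Psme3 in each mouse by group with mean ± SD, on an axis that starts at 0. Right, log2(TPM + 1) of Psme3 against the mean log2(TPM + 1) of 47 other genes chosen for a within-group Pearson r of at least 0.95 to it, one point for each mouse: all 4 groups lie along one line, from 11.4 to 61.1 TPM of Psme3.

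Subunits of the constitutive complex varied together from mouse to mouse. Among the 31 genes of the 20S core and the 19S particle the median Pearson r of the 465 pairs, within groups, was 0.41 (median rho 0.39), and 96.6% of the pairs were positive. The median was 0.45 within the core (91 pairs) and 0.45 within the 19S particle (136 pairs), against 0.06 over all pairs of the 15554 genes. Psmb2 had the highest median r with the others, 0.53, and Psmb7 the lowest, 0.16. The median r to the 31 genes was -0.06 for Psmb8, -0.17 for Psmb9 and -0.04 for Psmb10, and the r of Psmb10 with single genes ran from -0.53 to 0.56. Low values were not particular to the immunoproteasome, since Psme3 stood at -0.16, Psme4 at 0.01 and Psmd5 at 0.06, whereas Psme2 was at 0.48. All pairs come from the same libraries and share their scaling and their RNA quality, and the values carry no test.

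Factors around the proteasome were read from 3 further lists, to be set against the 5% of all genes called with age in WT and the 9.18% called in hAβ-KI mice. Of 15 tested genes for assembly chaperones, inhibitors and associated factors 1, Psmg2, a chaperone of the alpha ring, was called with age in WT (-0.24 ± 0.06, SE), and none was called in hAβ-KI mice. Of 7 tested regulators of subunit transcription, none was called in WT and 1 in hAβ-KI mice, Nfe2l2 (0.29 ± 0.10), while Nfe2l1, which drives subunit genes when the proteasome is inhibited, differed by 0.06 ± 0.05 in WT and 0.01 ± 0.06 with the knock-in. Of 10 ubiquitin genes and shuttle factors none was called in WT, and the ubiquitin gene Ubb (-0.09 ± 0.03) and the activating enzyme Uba1 (-0.16 ± 0.04) fell in hAβ-KI mice. Of the 8 neuronal markers none was called with age in WT, and Rbfox3 fell in hAβ-KI mice (-0.19 ± 0.05) and was also called for genotype at 22 months (-0.20 ± 0.05). The summed neuronal markers were 2957 to 3296 TPM in young WT, 2853 to 3304 TPM in old WT, 2912 to 3306 TPM in young hAβ-KI and 2893 to 3060 TPM in old hAβ-KI mice, and their part in the lower core subunits was not tested. In these lists no gene was called for genotype at 2 months and none for genotype by age.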

How the data were processed

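Hippocampal RNA of 29 mice was measured by RNA-seq (Smart-seq2 and Nextera libraries without strand, paired reads of 43 bases), 1 library for each mouse. According to the submitters' processing notes and methods, the authors ran STAR 2.5.1b on GRCm38 and RSEM 1.2.22 on the Gencode vM8 annotation, and the deposited values are TPM of coding and long non-coding genes. TPM hold no read counts, so the depth of each library is unknown, no counting error is given and precision is the spread between mice.

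Groups came from the sample labels. Genes that reached 1 TPM in no fewer than 2 mice (15554) were tested on log2(TPM + 1) with limma 3.58.1 in R 4.3.3 (lmFit, eBayes with trend) in 1 model of the 4 groups. The 5 contrasts compared genotypes within an age, ages within a genotype, and the age effect between genotypes. Genes were called at a Benjamini-Hochberg FDR under 0.1 over all genes tested, with p under 0.05. Fold changes on this scale understate those of low genes. The script was tested on simulated shifts of 1 log2 unit. That is larger than the differences reported for members, so the recovery of shifts of their size was not tested. Correlations used group-centered values. Descriptive steps used Python 3.11.15 with pandas 2.3.3 and numpy 2.4.6. Positions are from GENCODE M21 and promoter sequences from RefSeq (GRCm38.p6); 30645 genes had a position.

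The members and the gene lists were chosen with earlier results of these data known. The text names the catalytic pairs, Psme1, Psme2 and Psme3, every called member, the 2 highest and 2 lowest in each two-group contrast, the untested members, the most and least abundant of each role, and called genes of the other lists. The genes that vary with Psme3 and the mouse singled out by its Psmb8 level were named after their values were seen. Alternatives were a pseudocount of 0.1, 2 other filters, 2 other scalings, a fit restricted to the compared groups, a sex term, no variance trend, correlated mice that share a name number, each mouse left out in turn and, added after the values were seen, the covariate of genes that vary with Psme3. Of the lists, 1 microglial marker and 1 interferon gene are not reported here, and counts and sums leave them out.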

Additional observations from a re-analysis of the deposited data

Results flagged for a closer look

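Among 172 sets of values (43 tested members in 4 groups), 10 held a mouse that lay far from the others of its group by Dixon's criterion, which chance meets in about 1 in 20 groups. High in WT 22-month replicate 6 were Psmb6 (357.02 TPM, the next mouse at 323.15), Psma3 (289.72 TPM, next 259.56) and Psmc4 (187.85 TPM, next 159.85). High in WT 2-month replicate 1 were Psma6 (209.81 TPM, next 189.47) and Psmc1 (168.4 TPM, next 154.12). Psma3 was high in hAβ-KI 2-month replicate 1 (332.9 TPM, next 277.81). In the old hAβ-KI group Psmb10 was high in replicate 2 (71.03 TPM, next 57.89), Psmc3ip high in replicate 5 (7.33 TPM, next 5.4) and Psmd4 low in replicate 4 (139.32 TPM, next 148.72). Psmd9 was low in WT 22-month replicate 3 (29.63 TPM, next 35.66). Psmb8 and Psmb9 had no such mouse in any group, and no member differed by the test of genotype by age.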

How the results depend on the processing

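No member was called for genotype at either age or for genotype by age under any setting. Of the 24 calls with age, 15 held under all 10 settings other than leaving out a mouse, 14 of these whichever mouse was left out as well, and none changed direction. The age calls in WT numbered 9, but 4 after quantile normalization and 14 with the covariate of genes that vary with Psme3, which was added after the values were seen, and 5 to 11 with a mouse left out. With one mouse left out the count in hAβ-KI mice was 12 to 21, against 15. The cause was not tested. Values near 0 that were not called turned sign. With quantile normalization these were Psmb6 for genotype at 22 months (0.0053) and, for genotype by age, Psmb7 (-0.0108, and -0.0017 when rescaled to nuclear protein-coding genes) and Psmb9 (-0.0004), and with sex as a covariate Psme2 for genotype at 22 months (-0.003). When single mice were left out, genotype at 2 months ran from -0.0062 to 0.0278 for Psmb5, -0.0061 to 0.0232 for Psmb6, -0.1491 to 0.002 for Psmb8 and -0.0541 to 0.0481 for Psmb9. Genotype at 22 months ran from -0.0375 to 0.0026 for Psmb6, -0.0016 to 0.144 for Psmb9, -0.0381 to 0.0355 for Psme1 and -0.0128 to 0.0291 for Psme2. Age in hAβ-KI mice ran from -0.0024 to 0.0909 for Psmb10 and -0.0339 to 0.0396 for Psme1. Genotype by age ran from -0.0044 to 0.0274 for Psmb7, -0.1796 to 0.0077 for Psmb8 and -0.0053 to 0.1404 for Psmb9. None of the 12 log2 ratios of an immunoproteasome gene to its constitutive counterpart moved by more than the SD within groups. TPM without counts set no limit of detection for Psma8 and Psmb11.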
